A study of Mus musculus with 24 samples.

Results

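Osteoclasts are the multinucleated cells that resorb bone and calcified cartilage, and the 10 genes described here are among those by which they are recognised: Ctsk, Acp5, Mmp9, Atp6v0d2, Car2, Dcstamp, Ocstamp, Oscar, Tnfrsf11a and Calcr. The genes were taken by symbol from the deposited table, in which each of the 10 had 1 row among 52178 genes, and their values are given in all 24 libraries. RNA was sequenced from 2 cartilage explant models of C57/BL6 mice (C57/BL6J in the methods). Hip caps were avulsed from the femoral heads of male mice aged 4 weeks, with 2 hip caps of 1 mouse in each sample. The methods describe them as mainly articular cartilage, without the subchondral bone beneath it. Metatarsals came from embryos at day 15 (E15), with 6 pooled bones of unstated sex in each sample. After 24 h of culture the explants were held in a pressure vessel for 1 h at 0 MPa (control), 5 MPa (termed physiological by the study) or 50 MPa (termed injurious), and were then cultured for another 24 h, in DMEM for hip caps and in supplemented α-MEM for metatarsals. No library carried a genetic change. Age, sex, medium and anatomical site therefore differed together between the tissues. Each of the 6 groups had 4 libraries. The study left out hip cap control replicate 4 (HC4) and hip cap 50 MPa replicate 2 (H502) as outliers, so the tests rest on 22 libraries, and both are shown beside them here.

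Osteoclasts form when precursors of the monocyte and macrophage lineage, kept alive by the cytokine CSF1, receive the signal RANKL (Tnfsf11) through its receptor RANK (Tnfrsf11a) and fuse. The mature cell seals off a patch of matrix, pumps acid into it with a vacuolar proton pump, and releases cathepsin K and other proteases that digest the exposed collagen. Osteoclasts and the related chondroclasts remove calcified cartilage where cartilage is replaced by bone. In an RNA sample of a whole explant, fewer cells of a type and less RNA per cell cannot be told apart. Some of the 10 genes are also used by other cells. Car2 is abundant in red cell precursors, Mmp9 is stored in neutrophil granules, and Ctsk is also made by fibroblasts.

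The depth of the libraries was between 4185557 and 25104484 counts. The hip cap controls tested had 6731592 to 15027631 counts, hip caps at 5 MPa 12736652 to 25104484 and those tested at 50 MPa 7565386 to 13902923. The methods report RNA integrity values below the ideal minimum, which the study read as some partial degradation. Libraries were therefore made with depletion of ribosomal RNA. Levels are given in CPM, normalised read counts relative to the size of each library as scaled by the trimmed mean of M-values (TMM), and 3 counts, taken as the floor of detection, were worth between 0.124 and 0.901 CPM. The summed level of 12 cartilage genes lay between 31720.4 and 85741 CPM in the 10 hip cap libraries tested and between 1847 and 5051 CPM in metatarsals, while 10 skeletal muscle genes summed to at most 41.5 CPM in those hip caps and to between 441 and 2453 CPM in metatarsals. The metatarsal explants thus held less RNA of the cartilage genes and more RNA of muscle genes than the hip caps. Library type, which the labels state, and sequencing run, which was read from a plot and does not match the run sizes given in the methods, were not spread evenly. Run 1 held the 3 hip cap controls tested and run 2 all 4 hip cap libraries of 5 MPa, so that pressure and run cannot be told apart within hip caps there. HC4 was the only hip cap control of run 2.

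Promoter sequences were looked up because the levels of these genes moved together across hip cap libraries. RefSeq promoter windows of the GRCm38.p6 build, from 250 bases before to 50 bases after a start, were found for 5 of the 10 genes (8 windows) and not for Mmp9, Dcstamp, Ocstamp, Atp6v0d2 and Car2. Those of Acp5 (chr9:22130549-22130848, minus strand, the most downstream of 3 starts), Ctsk (chr3:95498960-95499259, plus strand), Oscar (chr7:3616108-3616407, minus strand) and Tnfrsf11a (chr1:105780473-105780772, plus strand) are printed to set 2 enzymes of the resorbing cell beside 2 of its receptors. Capitals mark letters that match the core of NFAT sites (GGAAA), a PU.1 site (GAGGAA), an E-box bound by MITF (CATGTG) or an AP-1 site (TGANTCA), read on both strands. GAGGAA and GGAAA may overlap by some letters.
Acp5: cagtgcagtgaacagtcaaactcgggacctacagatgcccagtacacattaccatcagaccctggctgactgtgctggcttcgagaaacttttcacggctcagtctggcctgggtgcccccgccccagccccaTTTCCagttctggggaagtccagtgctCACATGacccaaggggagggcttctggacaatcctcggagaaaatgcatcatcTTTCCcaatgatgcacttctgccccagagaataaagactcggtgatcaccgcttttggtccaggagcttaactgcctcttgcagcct
Ctsk: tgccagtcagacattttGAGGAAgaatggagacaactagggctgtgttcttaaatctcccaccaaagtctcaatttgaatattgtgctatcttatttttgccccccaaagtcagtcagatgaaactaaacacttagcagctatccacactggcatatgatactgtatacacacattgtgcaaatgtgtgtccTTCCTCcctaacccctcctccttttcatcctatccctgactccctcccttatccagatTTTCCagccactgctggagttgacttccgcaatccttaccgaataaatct
Oscar: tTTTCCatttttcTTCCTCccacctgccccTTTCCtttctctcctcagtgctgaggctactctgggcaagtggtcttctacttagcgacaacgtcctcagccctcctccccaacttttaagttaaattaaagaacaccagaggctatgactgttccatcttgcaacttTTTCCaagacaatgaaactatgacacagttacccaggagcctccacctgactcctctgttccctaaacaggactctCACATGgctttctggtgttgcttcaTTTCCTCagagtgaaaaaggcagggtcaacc
Tnfrsf11a: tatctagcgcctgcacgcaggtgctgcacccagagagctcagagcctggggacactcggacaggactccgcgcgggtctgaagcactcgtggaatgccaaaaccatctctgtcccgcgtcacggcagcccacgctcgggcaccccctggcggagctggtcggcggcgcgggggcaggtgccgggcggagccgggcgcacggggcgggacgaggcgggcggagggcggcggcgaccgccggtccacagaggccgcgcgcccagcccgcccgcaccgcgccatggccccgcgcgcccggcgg
The Oscar window held 4 matches to GGAAA, 2 to GAGGAA and 1 to CATGTG, and the Acp5 window printed 2 matches to GGAAA and 1 to CATGTG. The other 2 Acp5 windows held 1 match to GGAAA each and none to the other motifs. Of all 8 windows found, GGAAA was present in 6, GAGGAA in 2, CATGTG in 2 and TGANTCA in 0. The Ctsk window held 1 match to GGAAA and 2 to GAGGAA, and the Tnfrsf11a window had none of the 4 motifs. Such letters are common, as GGAAA was present in 61.3%, GAGGAA in 28.3%, CATGTG in 14.2% and TGANTCA in 7.81% of the 32851 windows of the same length in the table. A match describes the sequence alone, and binding was not measured.

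Acp5 (ENSMUSG00000001348), the tartrate-resistant acid phosphatase that serves as the classic stain for osteoclasts, was the gene that differed most between the tissues. Its level was 94.0, 138 and 109.6 CPM in hip cap control replicates 1 to 3 and 1429.8 CPM in HC4. At 5 MPa it was 284, 196, 443 and 137 CPM, and at 50 MPa 406, 131 and 569.9 CPM in replicates 1, 3 and 4 and 69.2 CPM in H502. In metatarsals it lay between 0.743 and 4.99 CPM in controls, between 3.43 and 5.84 CPM at 5 MPa and between 3.33 and 3.55 CPM at 50 MPa. Every hip cap library was above every metatarsal library, and among hip caps the groups of the libraries tested overlapped.

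Mmp9 (ENSMUSG00000017737), the gelatinase that osteoclasts release onto partly digested collagen, followed the same order. It was at 190.1, 281 and 157 CPM in hip cap controls and at 2508 CPM in HC4. At 5 MPa it was at 642, 471, 953 and 298 CPM, and at 50 MPa at 647, 292 and 885 CPM, with 117 CPM in H502. The metatarsal libraries lay between 11.3 and 34.1 CPM and did not reach the lowest hip cap. In both pressure groups every library tested was above the 3 controls tested, and all of them were below HC4.

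Ctsk (ENSMUSG00000028111), which encodes the collagen-degrading protease cathepsin K, had the highest level per length of the 10 genes in metatarsals. It was at 28.0, 79.1 and 50.5 CPM in hip cap controls, at 588 CPM in HC4, at 131, 102, 211 and 75.3 CPM at 5 MPa, and at 202, 91.0 and 184 CPM at 50 MPa, with 36.1 CPM in H502. In metatarsals it was between 20.8 and 28.9 CPM in controls, between 27.2 and 37.1 CPM at 5 MPa and between 27.1 and 32.3 CPM at 50 MPa. The 2 tissues lay closer for Ctsk than for Acp5 or Mmp9, and the lowest hip cap control was within the range of the metatarsal controls.

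Atp6v0d2 (ENSMUSG00000028238) encodes a subunit of the vacuolar proton pump that is rich in osteoclasts and takes part in their fusion. Its hip cap levels were 3.43, 11.9 and 6.66 CPM in controls, 79.8 CPM in HC4, 20.9, 14.3, 26.7 and 12.5 CPM at 5 MPa, and 24.99, 11.6 and 21.0 CPM at 50 MPa, with 6.22 CPM in H502. The 12 metatarsal libraries were between 0.372 and 2.74 CPM. Car2 (ENSMUSG00000027562), the carbonic anhydrase that supplies protons for acid secretion, was near the floor in hip cap controls, at 0.264, 0.464 and 0.462 CPM, which came from 1 to 5 counts. It reached 3.96 CPM in HC4, 3.12, 1.501, 4.55 and 1.66 CPM at 5 MPa, and 2.97, 1.62 and 3.30 CPM at 50 MPa, with 3.94 CPM in H502. The 3 controls tested thus stood below every other hip cap library, HC4 included, and metatarsals lay between 0.364 and 2.00 CPM.

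Dcstamp (ENSMUSG00000022303) and Ocstamp (ENSMUSG00000027670) encode membrane proteins without which precursors do not fuse. Dcstamp was at 1.32, 2.78 and 1.29 CPM in hip cap controls, at 17.2 CPM in HC4, between 2.51 and 8.10 CPM at 5 MPa, and at 6.45, 1.88 and 4.21 CPM at 50 MPa with 0.758 CPM in H502, against 0 to 0.857 CPM in metatarsals. Ocstamp was at 1.85, 2.16 and 3.61 CPM in controls, 4.92 CPM in HC4, 2.65 to 8.25 CPM at 5 MPa and 6.39 to 8.41 CPM at 50 MPa, with its highest value of 12.4 CPM in H502. In metatarsals Ocstamp lay between 1.11 and 4.66 CPM and overlapped with hip cap controls.

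Of the receptors, Tnfrsf11a (RANK, ENSMUSG00000026321) had a mean of 5.03 ± 1.54 CPM (SD, n = 3) in the hip cap control group and of 8.08 ± 1.96 CPM (SD, n = 4) in the metatarsal control group, and the ranges overlapped. Only Tnfrsf11a and Car2 had the higher mean in metatarsal controls, and neither difference passed the test. In hip caps Tnfrsf11a was between 8.46 and 18.2 CPM at 5 MPa and between 5.05 and 10.2 CPM at 50 MPa, with 32.8 CPM in HC4 and 17.0 CPM in H502. Oscar (ENSMUSG00000054594), a receptor for collagen that co-stimulates osteoclast formation, was at 0.555 to 1.39 CPM in hip cap controls, 8.13 CPM in HC4, 1.18 to 5.70 CPM at 5 MPa and 1.41 to 6.45 CPM at 50 MPa, and at 0.175 to 0.828 CPM in metatarsals. Calcr (ENSMUSG00000023964), the calcitonin receptor of the mature cell, was hardly detected. It had 0 counts in each of the 12 metatarsal libraries and in HC4, 0 to 10 counts in the 10 hip cap libraries tested and 27 counts (4.10 CPM) in H502.

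**Figure D1:**
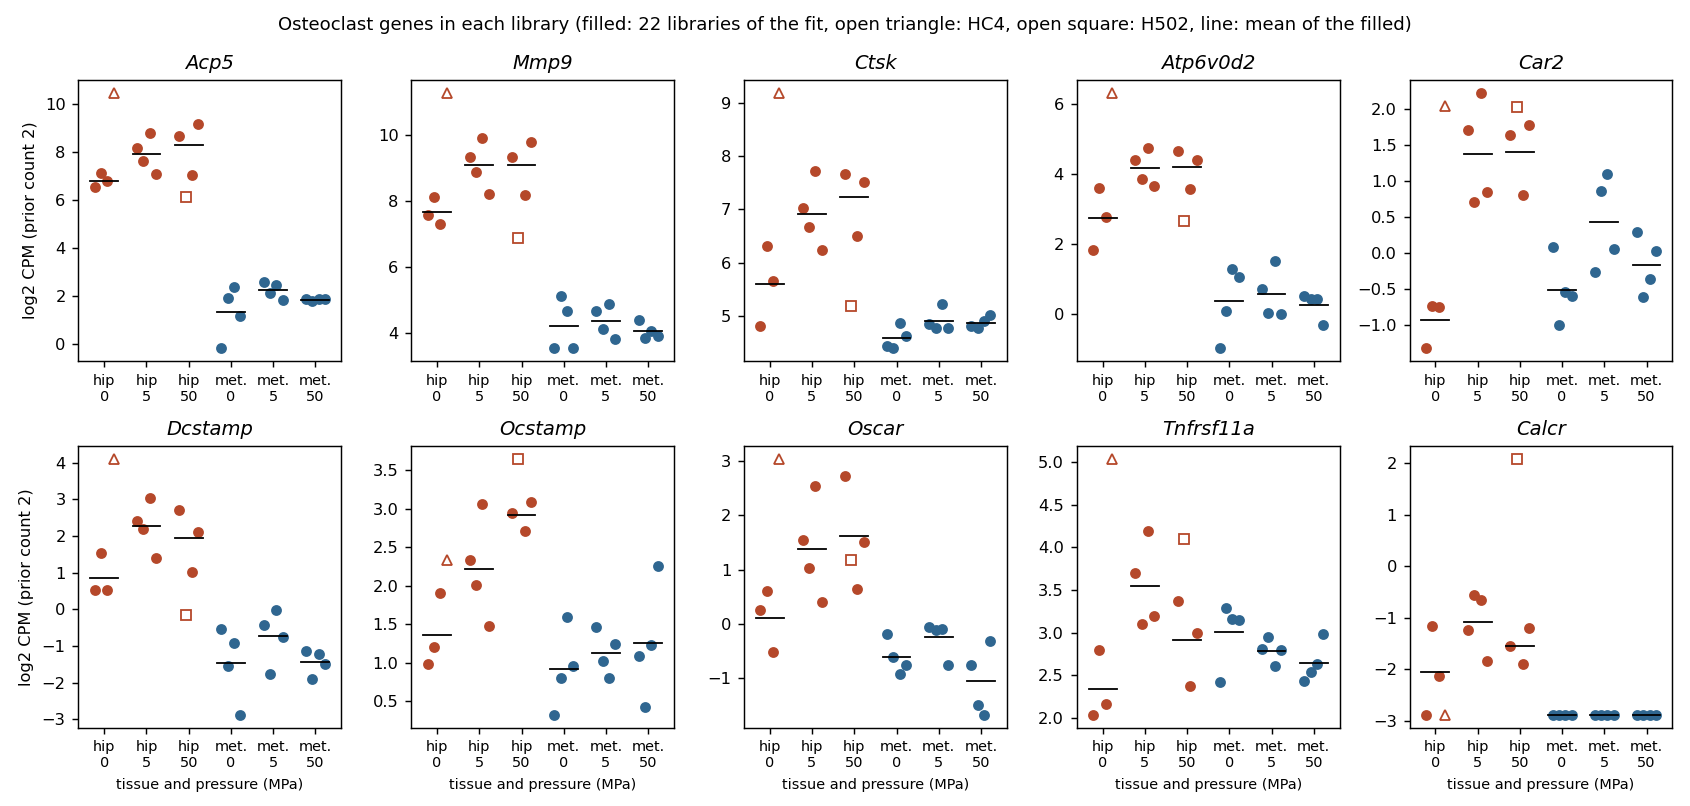
Level of each of the 10 genes in each of the 24 libraries, as log2 CPM with a prior count of 2, by tissue and pressure in MPa. Filled points are the 22 libraries tested and the line is their mean, the open triangle is HC4 and the open square is H502. HC4 was the highest hip cap library for 7 genes, and Calcr had 0 counts in all metatarsal libraries.

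HC4 was the highest of the 12 hip cap libraries for 7 of the 10 genes. The share of all genes that were highest in HC4 was not computed. Against the mean of the other 3 controls it was 12.6-fold higher for Acp5, 11.98-fold for Mmp9, 11.2-fold for Ctsk, 10.9-fold for Atp6v0d2, 9.54-fold for Dcstamp, 8.13-fold for Oscar and 6.51-fold for Tnfrsf11a, but 1.94-fold for Ocstamp. The sum of 15 macrophage genes was 660.4 CPM in HC4 and between 124 and 644 CPM in the 10 hip cap libraries tested, and that of the cartilage genes was 14599 CPM, below all of these 10. The sum of 10 osteoblast genes was 8743 CPM in HC4, within the range of 4087 to 10332 CPM in the same 10. That of 13 neutrophil genes was 58.6 CPM, also within their range of 14.4 to 227 CPM. Those of 12 erythroid and 10 muscle genes were 41.9 and 65.7 CPM in HC4, above their highest of 35.2 and 41.5 CPM. H502 was the lowest hip cap library for Acp5, Mmp9 and Dcstamp and the highest for Ocstamp and Calcr. Its sums were 112 CPM for macrophage genes, 1567 CPM for osteoblast genes, 16944 CPM for cartilage genes and 126 CPM for muscle genes. The part of tissue composition in these 2 libraries was not tested.

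Per kilobase of the longest coding transcript, the order of the median levels in the 10 hip cap libraries tested was Mmp9 (121 CPM per kb), Acp5 (115), Ctsk (63.9), Atp6v0d2 (5.29), Dcstamp (1.75), Tnfrsf11a (1.62), Ocstamp (1.20), Car2 (0.915), Oscar (0.909) and Calcr (0.0656). Each of Acp5, Ctsk and Atp6v0d2 was above the next gene in 10 of 10 libraries. Mmp9 was above Acp5 in 3 libraries, and among Dcstamp, Tnfrsf11a, Ocstamp, Car2 and Oscar neighbours changed places between libraries. In the 12 metatarsal libraries the median order began with Ctsk (18.2 CPM per kb), Mmp9 (5.29), Acp5 (2.45) and Tnfrsf11a (1.36), while Dcstamp (0.153) was next to last before Calcr. Ctsk was above Mmp9 and Mmp9 above Acp5 in 12 of 12 metatarsal libraries.

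Hip caps were first compared with metatarsals at the same pressure, the contrast between the articular and the growth plate model that the study set out. Without pressure, 3 of the 9 genes that passed the filter on low counts were higher in hip caps (edgeR, adjusted p at most 0.05), against 14.1% of the 21283 genes tested that were higher. They were Acp5, with a log2 fold change of 5.86 ± 0.82 (SE, adjusted p = 4.96e-05 by edgeR), Mmp9 with 3.81 ± 0.69 (edgeR adjusted p = 0.000521) and Atp6v0d2 with 3.46 ± 0.79 (edgeR adjusted p = 0.00263). Dcstamp (2.22 ± 0.96, edgeR adjusted p = 0.0884) and Ctsk (1.14 ± 0.48, edgeR adjusted p = 0.0828) did not pass. The median log2 fold change of the 9 genes was 1.14, and that of all genes -0.08. Of 9 osteoblast genes tested 7 were higher and 1 lower, with a median of 3.48, and of 13 macrophage genes 1 was higher and 2 were lower, with a median of -0.78. Of all genes 15.9% were lower, so the macrophage counts did not stand above the shares of all genes. Metatarsal control replicate 1, the only one of run 1, decided 2 of these calls, since without it Acp5 alone was past the threshold and the log2 fold changes of Mmp9 and Atp6v0d2 were 2.95 and 2.84. With HC4 in the fit, an alternative added after seeing the data, 6 genes passed, with Dcstamp, Ctsk and Oscar beside these 3.

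At 5 MPa, where all 8 hip cap and metatarsal libraries were of the same run and library type, all 9 genes were higher in hip caps, against 18.8% of all genes. The log2 fold changes were 5.81 ± 0.52 for Acp5, 4.80 ± 0.48 for Mmp9, 3.64 ± 0.42 for Atp6v0d2, 3.27 ± 0.52 for Dcstamp, 2.11 ± 0.33 for Ctsk and 2.01 ± 0.48 for Oscar. The other three changed less, with 1.23 ± 0.32 for Ocstamp, 1.05 ± 0.40 for Car2 and 0.84 ± 0.25 for Tnfrsf11a, and adjusted p-values by edgeR reached from 1.59e-07 for Acp5 to 0.0422 for Car2. The median was 2.11, against -0.08 for all genes. The calls of Car2 and Tnfrsf11a were lost in 10 and 3 of 33 alternatives, which included library sizes without TMM scaling (log2 fold changes of 0.38 and 0.19). When only run 2 was fitted, Acp5 was at 5.85 and Mmp9 at 4.84. Of 13 macrophage genes 3 were higher and 2 lower, with a median of -0.20, where 19.1% of all genes were lower. Of 9 neutrophil genes 8 were higher, with a median of 3.20, of 7 erythroid genes 3, with a median of 1.93, and of 9 osteoblast genes 8, with a median of 2.77. The part of these cells in the values of the osteoclast genes was not tested in this comparison.

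At 50 MPa, 6 of the 9 genes were higher in hip caps, against 10.1% of all genes, and the median log2 fold change was 2.73, against -0.01 for all genes. Acp5 was higher by 7.08 ± 0.85 (edgeR adjusted p = 1.43e-05), Mmp9 by 5.67 ± 0.75 and Atp6v0d2 by 5.17 ± 0.78 on the log2 scale. Dcstamp (3.95 ± 0.97), Oscar (2.73 ± 0.82, edgeR adjusted p = 0.0207) and Ctsk (2.41 ± 0.51) passed as well, while Car2 had 1.35 ± 0.71 (edgeR adjusted p = 0.209) and Ocstamp and Tnfrsf11a had 0.89 and 0.27. The 3 hip cap libraries were of run 1 and unstranded, as was only metatarsal replicate 4 of its group, and without that library Acp5, Mmp9 and Atp6v0d2 were the 3 genes left. When only run 1 was fitted, with that library as the single metatarsal and assumed to vary like the hip caps, the same 3 genes passed, with log2 fold changes of 6.70, 5.37 and 4.82. Of 13 macrophage genes 1 was higher and 2 were lower here, and of 9 osteoblast genes 7 were higher and 1 lower, with a median of 2.81. Of all genes 9.58% were lower. Of 9 neutrophil genes edgeR called 0 (1 at an unadjusted p under 0.05, and 0 by DESeq2), with a median of 1.18.

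**Figure D2:**
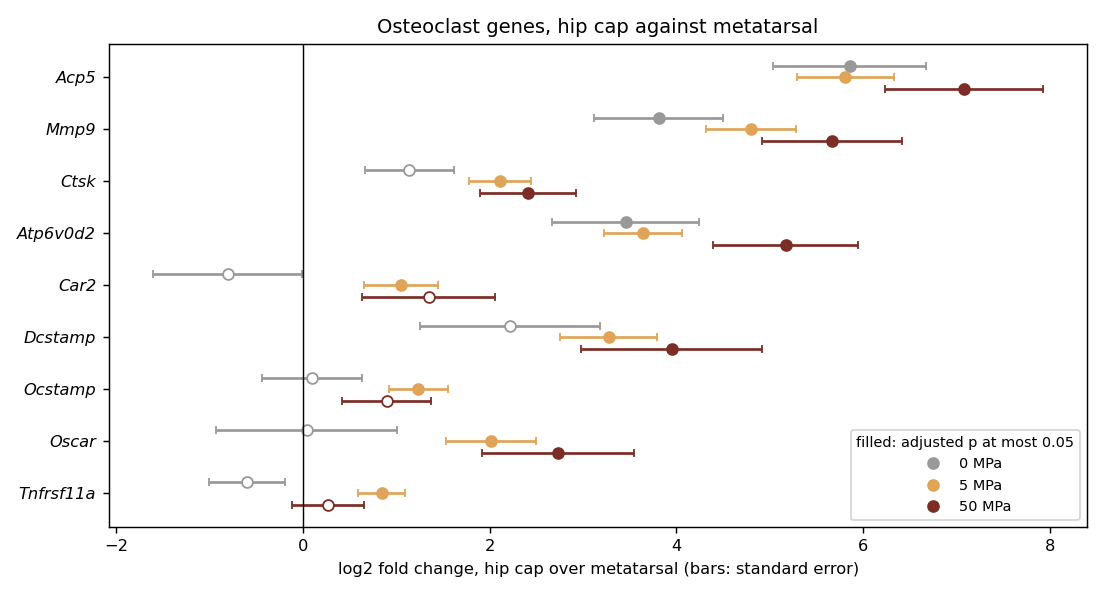
Log2 fold change of the 9 genes tested, hip cap over metatarsal, at 0, 5 and 50 MPa, with bars of 1 standard error. Filled points passed an adjusted p of 0.05 by edgeR. Acp5, Mmp9 and Atp6v0d2 lie to the right at all pressures, and at 0 MPa Oscar, Ocstamp, Car2 and Tnfrsf11a lie near or below 0.

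Calcr, which the filter removed, was compared by its CPM. At 5 MPa its mean was 0.369 CPM in hip caps and 0 in metatarsals (p = 0.0286 by an exact, two-sided permutation test, which cannot go lower with 4 libraries on each side), which is at least 2.53-fold above the mean floor of 3 counts per metatarsal library. In controls the means were 0.134 and 0 CPM (exact permutation p = 0.286), and at 50 MPa 0.213 and 0 CPM (exact permutation p = 0.0571, also the lowest possible). Within hip caps the exact permutation p was 0.171 at 5 MPa and 0.5 at 50 MPa against control, where 3 against 3 libraries cannot go below 0.1. At this depth no more can be said of Calcr.

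The effect of pressure on hip caps was then examined. The same 3 control libraries were the reference at 5 MPa and at 50 MPa, so these comparisons are not independent. At 5 MPa none of the 9 genes passed the threshold with edgeR, which called 0.0188% of all genes (4 of 21283), and none passed with DESeq2, which gave no adjusted p for Car2 and Oscar and called 577 genes. At an unadjusted p under 0.05 edgeR counted 5 of the 9 genes and 3145 of all genes. All 9 values were above 0, with a median of 1.22, against 0.01 for all genes. The log2 fold changes were 3.23 ± 0.84 for Car2 (edgeR adjusted p = 0.14), 2.74 ± 0.95 for Oscar, 2.24 ± 1.14 for Dcstamp, 1.30 ± 0.52 for Ctsk (edgeR adjusted p = 0.27), 1.22 ± 0.58 for Ocstamp and 1.13 ± 0.45 for Tnfrsf11a. Mmp9, Acp5 and Atp6v0d2 had 0.93, 0.46 and 0.03. Since run and pressure coincide, these values rest through the run term on metatarsal libraries too, with weights in a least-squares fit of the same design of 0.56 for control replicate 1 and 0.44 for 50 MPa replicate 4. Without that metatarsal control Tnfrsf11a was at 2.00 and Ocstamp at 1.89, and without hip cap control replicate 3 they were at 0.34 and 0.37. In CPM, to which no run or library type term was applied, libraries of the 2 groups did not overlap for Mmp9, Atp6v0d2, Tnfrsf11a and Car2, that is for 4 of 9 genes, against 8.39% of all genes that were higher without overlap.

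These directions rested on which controls were used. When HC4 was added to the fit (23 libraries, chosen after seeing the data, as was the fit of run 2 alone), 7 of the 9 values at 5 MPa fell below 0, with a median of -0.94, and none passed the threshold. Acp5 was then at -1.64, Atp6v0d2 at -1.65, Mmp9 at -1.01, Dcstamp at -0.98 and Ctsk at -0.94, and only Car2 (0.52) and Ocstamp (0.46) stayed above 0. With HC4 as a control no gene of the 9 was without overlap, against 2.89% of all genes. When the libraries of run 2 alone were fitted, with HC4 as the single control, 6 of the 9 genes were lower at 5 MPa, where 7148 of 21715 genes were called in either direction, with log2 fold changes of -2.37 for Acp5 and -2.12 for Ctsk, a fit in which the lone control is assumed to vary like the other groups. Without control replicate 2, on the other hand, Car2 (3.26) and Ctsk (1.77) passed the threshold at 5 MPa. With no batch terms in the fit, Car2 (2.67), Ctsk (1.30), Tnfrsf11a (1.26) and Mmp9 passed.

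At 50 MPa, Car2 was the only one of the 9 genes past the threshold, with a log2 fold change of 2.66 ± 0.77 (edgeR adjusted p = 0.0477), against 3.32% of all genes that were higher. Its counts were 11 to 29 at 50 MPa and 1 to 5 in controls. The call was lost in 27 of 34 alternatives, whose values lay between 1.21 and 3.38 with adjusted p-values by edgeR or DESeq2 from 0.0183 to 0.561, and it was among those lost with HC4 in the fit. Ctsk was at 1.53 ± 0.51 (edgeR adjusted p = 0.0861), Oscar at 2.25 ± 0.87, Dcstamp at 1.77 ± 0.83, Mmp9 at 1.60 ± 0.69, Acp5 at 1.41 ± 0.74 and Atp6v0d2 at 1.37 ± 0.65, while Ocstamp and Tnfrsf11a were at 0.75 and 0.41. The median was 1.53, against 0.02 for all genes. In CPM, to which no library type term was applied, the groups did not overlap for Ctsk, Mmp9, Ocstamp, Oscar and Car2. These are 5 of 9 genes, against 8.2% of all genes that were higher without overlap. The 3 libraries tested at 50 MPa were all unstranded and 2 of the 3 controls were stranded, so library type and pressure nearly coincide here. With all 24 libraries Ocstamp was the only gene left without overlap, against 1.77% of all genes, and with HC4 included the median of the 9 values was 0.40. Without control replicate 3, the only unstranded control, Acp5 was at -0.65, Atp6v0d2 at -0.0485, Mmp9 at 0.52 and Oscar at 0.95. In a least-squares fit of the same design this library has a weight of -0.76 in the contrast, against -0.12 for each of the other 2 controls. DESeq2 called Car2, Ctsk and Mmp9, with 2455 of all 21283 genes.

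**Figure D3:**
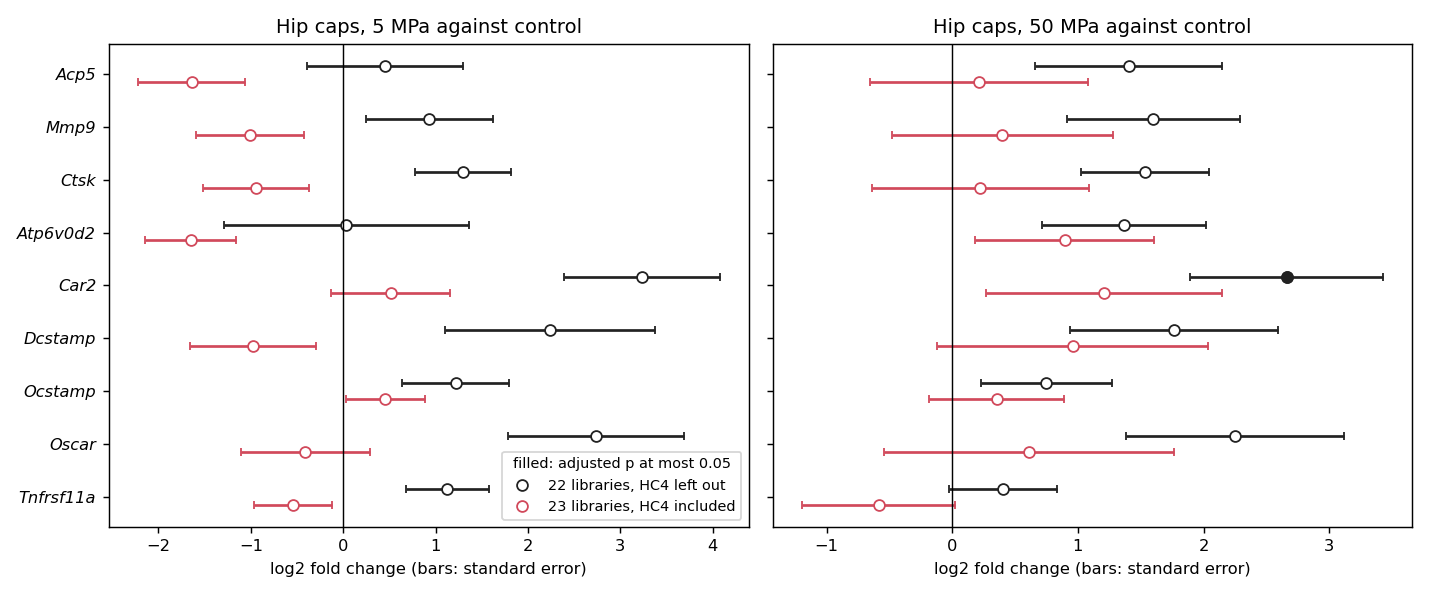
Log2 fold change against control of the 9 genes tested, for hip caps at each pressure, with bars of 1 standard error, from the 22 libraries tested (black) and after HC4 was added (red). Filled points passed an adjusted p of 0.05 by edgeR, which was so only for Car2 at 50 MPa without HC4. At 5 MPa 7 of the 9 red values lie below 0, and all black values lie above it.

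Markers of other cells were read beside these values. In the libraries tested the summed level of the macrophage genes was between 130.1 and 324 CPM in hip cap controls, between 124 and 644 CPM at 5 MPa and between 149.9 and 297 CPM at 50 MPa. That of 13 neutrophil genes was 17.6 to 83.4, 27.0 to 227 and 14.4 to 72.7 CPM, and Ly6g was at 0 in all 3 groups. That of 12 erythroid genes was 3.43 to 10.4, 6.42 to 35.2 and 4.51 to 21.9 CPM, with Car1 at 0 in all 3 groups. That of 10 osteoblast genes was 4087 to 6152, 4478 to 10332 and 4261 to 6043 CPM. By edgeR 1 of 13 macrophage genes was higher and 1 of 9 osteoblast genes lower at 50 MPa, where 3.32% of all genes were higher and 1.86% lower. Replicate 3 at 5 MPa had the highest macrophage, neutrophil, erythroid and osteoblast sums of its group and also the highest levels of the 9 genes tested in it. The skeletal muscle genes summed to 9.24 to 15.1 CPM in controls, 15.4 to 27.9 CPM at 5 MPa and 27.1 to 41.5 CPM at 50 MPa. Controls overlapped with neither pressure group. By edgeR 1 of 10 muscle genes (Ttn, named after its value was seen) was higher at 50 MPa, against 3.32% of all genes. HC4, a control, had 65.7 CPM of the muscle genes. The cartilage genes summed to 56579 to 85741 CPM in controls and to 31720.4 to 61052 CPM at 5 MPa, which overlapped, and 0 of 12 were called there by edgeR (0 also at an unadjusted p under 0.05, and 0 by DESeq2). At 50 MPa they summed to 40937 to 46144 CPM, below all 3 controls, and 2 of 12 were lower by edgeR, against 1.86% of all genes. At an unadjusted p under 0.05 edgeR counted 7 of the 12, and DESeq2 called 3, beside 4819 and 2455 of all 21283 genes. The part of these differences in the values of the osteoclast genes was not tested.

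In metatarsals, none of the 9 genes passed the threshold at 5 MPa, where edgeR called 0.0% of all genes, nor at 50 MPa, where it also called 0.0%. At an unadjusted p under 0.05, edgeR counted 1 of the 9 genes at 5 MPa (Car2) and 0 at 50 MPa, beside 689 and 828 of all genes, and DESeq2 called 13 and 9 genes but none of the 9. Car2 had a log2 fold change of 1.38 ± 0.48 and Dcstamp of 1.19 ± 0.69 at 5 MPa, and the other 7 genes lay between -0.31 and 0.77. At 50 MPa all 9 were between -0.47 and 0.51. The level of Acp5 spread less at 50 MPa (3.48 ± 0.10 CPM, SD, n = 4) than in controls (2.88 ± 1.85 CPM, SD, n = 4), where replicate 1 was at 0.743 CPM from 4 counts. The difference between the tissues in the response to pressure was tested as an interaction. By edgeR none of the 9 genes passed at 5 MPa, where 0.0188% of all genes did, or at 50 MPa, where 0.132% did. At an unadjusted p under 0.05, edgeR counted 2 and 5 of the 9 genes, beside 2381 and 3900 of all 21283 genes. DESeq2 called none of the 9 genes at 5 MPa, where it called 128 genes. At 50 MPa it called Mmp9, among 1349 genes, and gave no adjusted p for Car2 and Oscar. The highest values were 1.97 ± 1.00 for Oscar at 5 MPa and 2.70 ± 0.96 for Oscar at 50 MPa (edgeR adjusted p = 0.467 and 0.141). They rest on 4 to 9 counts of Oscar in the hip cap controls tested.

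Of 21 genes for the signals that form osteoclasts and the factors that answer them, 20 were tested, and 7 were higher and 1 (Fos) lower in hip cap controls, 10 higher at 5 MPa and 10 at 50 MPa, with medians of 0.40, 0.92 and 1.15. Of all genes 14.1%, 18.8% and 10.1% were higher in these contrasts, and 15.9%, 19.1% and 9.58% were lower. Tnfsf11, the ligand RANKL, was higher in hip caps by 2.21 ± 0.56 in controls (edgeR adjusted p = 0.00487), by 3.78 ± 0.33 at 5 MPa and by 4.68 ± 0.58 at 50 MPa on the log2 scale. Its levels were 3.71 to 9.80, 7.87 to 13.7 and 11.4 to 34.6 CPM in hip caps against at most 1.30 CPM in metatarsals. Tnfrsf11b, the decoy receptor osteoprotegerin that blocks RANKL, was higher by 6.16 ± 0.52, 6.79 ± 0.36 and 5.56 ± 0.53, from 194 to 295 CPM in hip cap controls against 1.56 to 3.49 CPM in metatarsal controls. Ligand and decoy were thus both higher in hip caps.

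Siglec15, a lectin of the osteoclast membrane, was among the 3 largest changes of the list at every pressure, with 6.34 ± 2.18, 6.27 ± 0.74 and 8.36 ± 1.67, sizes that depend on very low metatarsal levels of at most 0.156 CPM against 0.264 to 5.43 CPM in hip caps. Il34, a second ligand of the CSF1 receptor, was higher by 2.39 ± 0.61 in hip cap controls. Csf1 was higher by 1.08, 1.89 and 1.49 at 0, 5 and 50 MPa, and its receptor Csf1r passed at 5 MPa (1.97 ± 0.34) and 50 MPa (2.08 ± 0.55) but had 0.87 ± 0.52 in controls (edgeR adjusted p = 0.224). Nfatc1, the transcription factor that directs osteoclast differentiation, did not pass at any pressure, with log2 fold changes of -0.40 ± 0.22, 0.09 ± 0.16 and -0.36 ± 0.23 and levels of 51.3 to 62.5 CPM in hip cap controls and 66.3 to 101 CPM in metatarsal controls.

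Of 20 genes of the acid and matrix resorption machinery, 3 were higher and 1 lower in hip cap controls, 13 higher and 1 lower at 5 MPa, and 9 higher and 1 lower at 50 MPa, with medians of 0.19, 0.46 and 0.56. Against the shares of all genes given above, the count in controls was near the background. Most of these genes serve lysosomes in all cells, and their differences were small beside those of Acp5. Tcirg1, the pump subunit of the osteoclast membrane, had 0.38 ± 0.32, 0.39 ± 0.22 and 0.24 ± 0.33 and passed at no pressure, and the chloride channel gene Clcn7 passed at 5 MPa (0.41 ± 0.16, edgeR adjusted p = 0.0437). The lysosomal protease gene Ctsd was higher in hip caps at each pressure, by 1.66, 1.32 and 1.35. Mmp14, a membrane collagenase of many connective tissue cells, was lower in hip cap controls (-2.39 ± 0.32). Ckb, a creatine kinase, and Slc9b2, a sodium and proton exchanger, had the largest changes at 5 MPa (1.75 ± 0.34 and 1.32 ± 0.24) and 50 MPa (2.12 ± 0.54 and 1.60 ± 0.38).

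Under pressure few of these genes passed. In hip caps at 5 MPa edgeR called 0 of the 20 signal genes and 0 of the 20 machinery genes (5 of each at an unadjusted p under 0.05), and DESeq2 called 0 and 1. At 50 MPa edgeR called 0 (5 unadjusted) and 2 (9 unadjusted), where it called 1102 of all 21283 genes (4819 unadjusted), and DESeq2 called 2 and 5, where it called 2455 of the same genes. In metatarsals both tools called 0 in both lists at both pressures, with at most 1 of a list at an unadjusted p under 0.05 by edgeR. The 2 machinery genes in hip caps were Snx10 (1.32 ± 0.19, edgeR adjusted p = 0.00466), a sorting nexin needed for the ruffled border, and Atp6v1h (0.81 ± 0.20, edgeR adjusted p = 0.0295), a subunit of the proton pump. Tnfsf11 had 1.37 ± 0.62 at 5 MPa and 1.38 ± 0.45 at 50 MPa (edgeR adjusted p = 0.308 and 0.0728), Tnfrsf11b 0.50 and -0.86, Csf1 0.92 and 0.60, and Csf1r 1.33 and 1.12. Nfatc1, Tcirg1 and Clcn7 were between -0.10 and 0.31. The interaction with tissue at 50 MPa passed for Snx10 (1.31 ± 0.21, edgeR adjusted p = 0.0184), while that of Tnfsf11 was 2.47 ± 0.57 (edgeR adjusted p = 0.0576). HC4, a control, held 34.1 CPM of Tnfsf11 and 152 CPM of Csf1r, against at most 9.80 and 21.3 CPM in the controls tested.

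The genes moved together among hip cap libraries. Over the 10 libraries tested, the log2 CPM of each of the other 8 genes tested followed that of Acp5, and 10 relations were computed in this family with Benjamini-Hochberg adjustment and 100000 permutations. Libraries were permuted freely across the pressure groups, so these p-values do not separate a shift shared by a group from a relation within groups. Mmp9 had r = 0.96 (permutation p = 2e-05, adjusted p = 0.0002) and rho = 0.94 (permutation p = 0.0002, adjusted p = 0.000933), and Ctsk r = 0.92 (permutation p = 5e-05, adjusted p = 0.00025) and rho = 0.93 (permutation p = 0.00028, adjusted p = 0.000933). Without the 2 libraries farthest from the median of Acp5, replicate 3 at 5 MPa and replicate 4 at 50 MPa, r was 0.94 and 0.92. Within the 6 libraries of run 1, which were controls and 50 MPa libraries, it was 0.97 and 0.91. Dcstamp, Oscar, Atp6v0d2 and Ocstamp had r of 0.88, 0.87, 0.87 and 0.83 and rho of 0.87, 0.87, 0.95 and 0.81, with adjusted permutation p-values of at most 0.0101. Tnfrsf11a had the weakest relation, at r = 0.75 (permutation p = 0.0148, adjusted p = 0.0184) and rho = 0.76 (permutation p = 0.0142, adjusted p = 0.0177). For these last 5 genes r was 0.95, 0.94, 0.89, 0.71 and 0.84 without the 2 libraries, and 0.89, 0.83, 0.86, 0.79 and 0.86 within run 1.

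Car2 differed in that the 3 controls formed a cluster apart, so its r with Acp5 over all 10 libraries is not given. Among the 7 libraries under pressure its r with Acp5 was 0.88. In the same 7 libraries r was 0.96 for Mmp9, 0.95 for Ctsk, 0.92 for Atp6v0d2, 0.81 for Oscar, 0.79 for Dcstamp, 0.75 for Ocstamp and 0.53 for Tnfrsf11a, as a description added after seeing the data. The relation of Mmp9 with the summed neutrophil genes did not pass (r = 0.11, permutation p = 0.775, adjusted p = 0.775, and rho = 0.01, permutation p = 1.0, adjusted p = 1.0), with r = -0.11 without the 2 libraries farthest from their median and r = -0.57 within run 1. All of these values share the library, its depth and its scaling. With all 12 hip cap libraries r with Acp5 was 0.98 for Mmp9 and 0.96 for Ctsk but 0.29 for Ocstamp, since Ocstamp was highest in H502, where Acp5 was lowest.

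**Figure D4:**
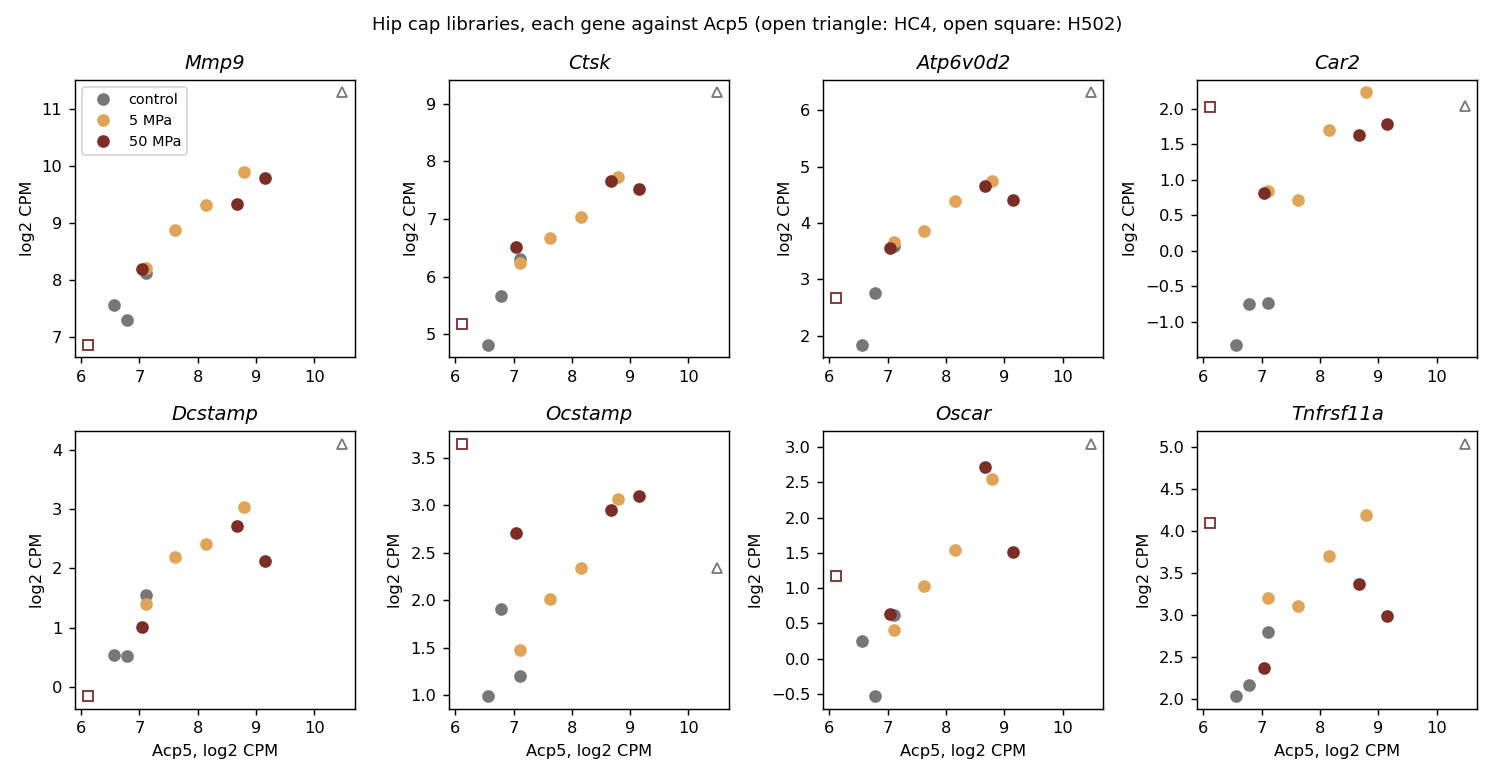
Log2 CPM of 8 genes against that of Acp5 in the 12 hip cap libraries, coloured by pressure, with HC4 as an open triangle and H502 as an open square. The points rise together for Mmp9 and Ctsk (r = 0.96 and 0.92 over the 10 filled points), the 3 controls stand below the others for Car2, and H502 lies far off the rest for Ocstamp, Car2 and Tnfrsf11a.

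Among 16108 other named genes with a mean of at least 1 CPM in these hip caps, the 5 whose log2 CPM was most like the mean of the 9 standardised genes over the 10 libraries were Slc37a2 (r = 0.99), Cd74 (r = 0.98), Tfrc (r = 0.97), Rab38 (r = 0.97) and Ptgfr (r = 0.97). Slc37a2 is a sugar phosphate transporter found in macrophages and osteoclasts, Cd74 is the invariant chain of antigen-presenting cells, Tfrc is the transferrin receptor, Rab38 is a small GTPase of lysosome-related organelles and Ptgfr is a prostaglandin receptor. Slc37a2 ranged from 9.50 to 46.9 CPM in the 10 libraries, Cd74 from 2.64 to 22.9 CPM and Tfrc from 46.2 to 183 CPM. In HC4, which was not used to choose them, Slc37a2 was at 79.1 CPM, Cd74 at 54.3 CPM, Tfrc at 269 CPM and Ptgfr at 46.8 CPM, each above the highest of the 10, and Rab38 was at 3.69 CPM against a highest value of 3.60 CPM. How many of the 16108 genes were above the 10 in HC4 was not computed, so these values have no background to be set against.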

How the data were processed

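RNA of 24 libraries in 6 groups was analysed. According to the methods and the submitters' notes, the authors trimmed the reads with Trim Galore 0.6.5, quantified transcripts with kallisto (build GRCm39) and used tximport to reach gene level. Estimated counts without normalization were deposited, and 27.0% of them were not whole, so they were rounded. Symbols and transcript lengths came from GENCODE M21 (GRCm38), which served for names and lengths alone.

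The members and gene lists were chosen with earlier results of these data known. In edgeR 4.0.16 (R 4.3.3), genes passing filterByExpr were scaled by TMM and fitted with robust quasi-likelihood over 22 libraries, with terms for group, run and library type. Tests were two-sided, with Benjamini-Hochberg adjustment over 21283 genes and a threshold of 0.05. Log2 CPM used a prior count of 2. Genes named were all 10 members, with fold changes where they passed, reached an absolute log2 fold change of 1 or were Ctsk or Car2 in hip caps under pressure, 7 pathway genes chosen by name, the 3 largest changes past the threshold per pathway list and comparison, and the 5 genes most like the members. The fits with HC4 and r within the libraries under pressure were added after seeing the data. Recovery of known changes by the fit was tested on simulated data. Alternatives were DESeq2 1.42.0, other scalings, filters, libraries and batch terms, and leaving out each library. The labels give 6 libraries as unstranded, and do not say whether metatarsal pools came from separate litters, so p-values measure the spread between these samples.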

Additional observations from a re-analysis of the deposited data

Results flagged for a closer look

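In 57 groups of 4 libraries, the highest or lowest value of a gene was examined for a gap to the rest that is large against the range of the group (ratio above 0.829). Chance gives this in about 1 of 20 groups of independent, normally distributed values, whereas CPM without a log were used here. It was found in 12 groups, and 8 of these were the hip cap control with HC4. Those 8 share 1 library, which the study had left out as an outlier, so they are not separate events to set against that rate. There HC4 was at 1429.8 CPM for Acp5, against 94.0 to 138 CPM in the other 3 controls, at 2508 CPM for Mmp9 (157 to 281 CPM), at 588 CPM for Ctsk (28.0 to 79.1 CPM) and at 79.8 CPM for Atp6v0d2 (3.43 to 11.9 CPM). It was at 32.8 CPM for Tnfrsf11a (3.96 to 6.80 CPM), at 17.2 CPM for Dcstamp (1.29 to 2.78 CPM), at 8.13 CPM for Oscar (0.555 to 1.39 CPM) and at 3.96 CPM for Car2 (0.264 to 0.464 CPM). H502 stood apart for Calcr, with 4.10 CPM against 0.135 to 0.300 CPM in the other libraries at 50 MPa.

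The 3 other gaps were in metatarsals and small in size. At 5 MPa replicate 3 was the highest for Ctsk, at 37.1 CPM against 27.2 to 28.7 CPM, and replicate 4 the lowest for Oscar, at 0.454 CPM against 0.787 to 0.828 CPM. At 50 MPa replicate 4 was the lowest for Atp6v0d2, at 0.666 CPM against 1.21 to 1.28 CPM.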

How the results depend on the processing

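The 5 MPa contrast between the tissues kept 8 or 9 of 9 calls when single libraries were left out and 6 with library sizes alone. In controls the 3 calls became 6 with all 24 libraries or with HC4 alone added, 5 without batch terms or with library type alone, and 1 to 4 when single libraries were left out (1 without metatarsal control replicate 1). At 50 MPa the 6 calls became 3 in run 1 alone and 3 to 6 with single libraries left out (3 without metatarsal 50 MPa replicate 4). The 0 calls in hip caps at 5 MPa became 4 without batch terms or with library type alone and 6, all lower, in run 2 alone with HC4, and 0 to 2 with single libraries left out (2 without control replicate 2). The single call in hip caps at 50 MPa, Car2, became 0 with library sizes alone, without the count filter, with all 24 libraries, with library type alone, within hip caps alone, in run 1 alone and with HC4 added, 2 without batch terms or with run alone, 3 by DESeq2, and 0 to 2 with single libraries left out (2 without control replicate 2). The interactions gave 0 to 1 calls with single libraries left out, and 1 by DESeq2 at 50 MPa. In metatarsals all of these settings gave 0 calls.

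With all 24 libraries, with HC4 added and in run 2 alone, log2 fold changes in hip caps at 5 MPa turned to -0.73, -0.98 and -1.70 for Dcstamp, -0.52, -0.54 and -1.37 for Tnfrsf11a, -0.93, -0.94 and -2.12 for Ctsk, and -0.28, -0.41 and -1.42 for Oscar, and in run 2 alone that of Car2 to -0.48. The interactions at 5 MPa turned, with all 24 libraries and with HC4 added, to -1.45 and -1.77 for Dcstamp, -0.31 and -0.51 for Car2, and -0.57 and -0.74 for Oscar. At 50 MPa all 24 libraries gave -0.17 for Acp5 and -0.0852 for Ctsk in hip caps and interactions of -0.47 and -0.20, and the interaction of Acp5 was -0.53 in run 1 alone and -0.10 with HC4 added. The cause of these changes beyond the added or removed libraries was not tested. Library sizes alone moved the median of all genes between the tissues from -0.08 to -0.97 in controls, from -0.08 to -0.70 at 5 MPa and from -0.01 to -0.90 at 50 MPa, and that of the 9 genes to 0.23, 1.48 and 1.75.

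Leaving out hip cap control replicate 3, the only unstranded one, gave the lowest values of Acp5 in hip caps at 50 MPa (-0.65 to 1.77 over single libraries left out), of Atp6v0d2 there (-0.0485 to 1.59) and of the interaction of Acp5 (-0.58 to 1.77). Control replicate 2 decided the added calls of Car2 and Ctsk named above and those of the interactions, which were Tnfrsf11a at 5 MPa and Ctsk at 50 MPa.

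Same-numbered libraries did not deviate together (median r = 0.018, from -0.288 to 0.171), so the replicate numbers were not used to pair samples. With the replicate block the call of Car2 in hip caps at 50 MPa was lost (0 calls). With all 12 hip cap libraries, r with Acp5 was 0.29 for Ocstamp, and r of Car2 with the summed erythroid genes was 0.68, against 0.59 over 10 libraries (permutation p = 0.0766, adjusted p = 0.0851) and 0.17 without the 2 libraries farthest from the median.

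Counts of 1 to 5 behind Car2 in hip cap controls, and 0 to 10 behind Calcr in the libraries tested, limit what can be seen of these genes at this depth. The same holds for Oscar and Dcstamp, with 4 to 9 and 5 to 18 counts in the hip cap controls tested. In metatarsals at 50 MPa these 2 genes had 3 to 9 and 3 to 5 counts. Atp6v0d2 had 2 counts in metatarsal control replicate 1, below the floor of 3.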
